A study of Mus musculus with 2 samples.

Results

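The genes described here were the members of the Hox clusters, chosen by name alone: every measured gene called Hoxa, Hoxb, Hoxc or Hoxd followed only by a number. The rule found 39 of the 26127 genes quantified. It used no expression value, but it was set with earlier results of these data known. The 38 described here are the base of every count below, which is therefore not a count over the complete clusters. RNA was sequenced from mouse embryonic stem (ES) cells of strain 129S1/SvImJ below passage 20, grown in medium with foetal calf serum and leukaemia inhibitory factor, which keeps the cells undifferentiated. WT cells were unmodified (H3f3a +/+, H3f3b +/+), and G34R cells carried the glycine-to-arginine substitution in histone H3.3 on a single copy of H3f3a (H3f3a +/G34R, H3f3b +/+). The mutant allele was a minigene placed under the endogenous H3f3a promoter after Cre excision of a wild-type minigene. There was 1 library per cell line, so there was no replicate check and no test between genotypes, and genotype cannot be told apart from clone or culture. All ratios below describe these 2 libraries.

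Hox genes encode homeodomain transcription factors that give cells along the head-to-tail axis, and in the limbs, their positional identity. They lie in compact clusters on separate chromosomes, and genes with the same number in different clusters are paralogues, copies of an ancestral gene. Low numbers (anterior genes) are activated first and nearest the head, whereas high numbers (posterior genes) follow later and nearer the tail. In ES cells the clusters are held largely silent by Polycomb repressors and become active on differentiation, for example in response to retinoic acid.

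Expression was given as RPKM, reads per kilobase of transcript and per 1 M mapped reads (M standing for mega), which corrects for gene length and for depth and so allows levels to be compared between genes. The 10 Hoxa genes described spanned 98.5 kb (chr6:52112350-52210874, mm9, minus strand) and the 10 Hoxb genes 173.9 kb (chr11:96055630-96229570, plus strand). The 9 Hoxc genes spanned 115.7 kb (chr15:102751534-102867274, plus strand) and the 9 Hoxd genes 96.8 kb (chr2:74506367-74603200, plus strand).

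Paralogues share the homeobox, the stretch that codes for the DNA-binding domain. The homeoboxes of Hoxb13 and Hoxc13 are shown because these paralogues stood in opposite directions between the libraries at the 95% interval, Hoxb13 no longer at a 99% interval. Each is the coding strand of 180 bases from the mm9 genome, 5′ to 3′, and capitals mark the bases coding for the tryptophan-phenylalanine-glutamine-asparagine-arginine-arginine motif of the recognition helix, which contacts DNA. Hoxb13 lies at chr11:96057334-96057513 and Hoxc13 at chr15:102757641-102757820, both on the plus strand and each within a coding exon.
Hoxb13: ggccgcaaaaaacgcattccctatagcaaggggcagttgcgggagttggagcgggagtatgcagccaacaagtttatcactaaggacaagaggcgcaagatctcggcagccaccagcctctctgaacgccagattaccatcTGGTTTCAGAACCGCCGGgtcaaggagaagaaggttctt
Hoxc13: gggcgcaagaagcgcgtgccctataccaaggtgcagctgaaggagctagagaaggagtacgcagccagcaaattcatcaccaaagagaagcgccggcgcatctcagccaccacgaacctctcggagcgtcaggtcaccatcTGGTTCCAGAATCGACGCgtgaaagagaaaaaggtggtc

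The Hoxb13 and Hoxc13 homeoboxes were identical at 73.9% of bases, with a longest shared run of 11 bases. Over all 40 pairs of described genes with the same paralogue number the identity ranged from 67.2% to 93.9%. The reads were 50 bases long. Of the 99071 different windows of 50 bases within exons of the 38 genes, 4 occurred at separate places in 2 members, 3 in Hoxa6 and Hoxb4 and 1 in Hoxb9 and Hoxc9, where stretches of the genome that overlapping members share were not counted. None of the 4 lay in Hoxb13 or Hoxc13.

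Hox genes were at or near the bottom of the range in both libraries. In WT cells 19 of the 38 (50.0%) were listed at 0 and in G34R cells 22 (57.9%), against 30.4% and 34.6% of all genes measured. At 0 in both were 16 (42.1%), against 28.2% of all genes. The median Hox RPKM was 0.005 in WT and 0 in G34R cells, against 0.23 and 0.18 over all genes. None of the 38 reached 1 RPKM in either library, a level that 41.1% of all genes reached in at least 1. At least 0.25 RPKM was reached by 1 of them (2.63%, against 51.2% of all genes), Hoxc13. At these levels a few transcribing cells and a low level in all cells cannot be told apart, nor fewer cells from less RNA per cell.

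**Figure D1:**
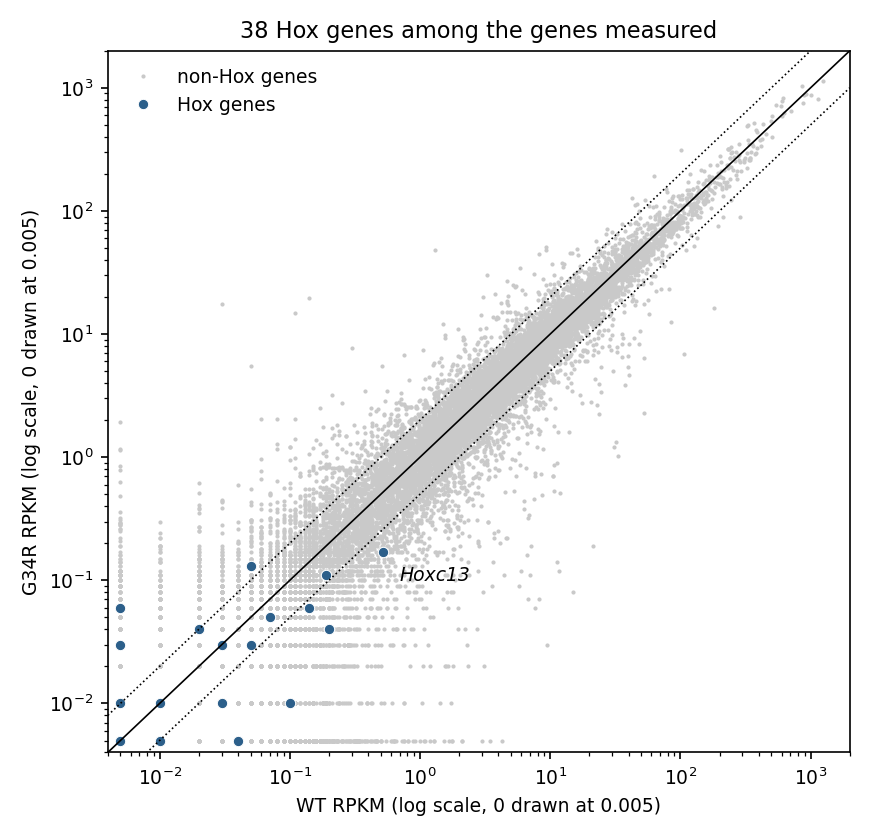
RPKM of the genes measured in the WT library (horizontal, log scale) and in the G34R library (vertical, log scale), with the 38 Hox genes described in blue, non-Hox genes in grey, the solid line at equality and the dotted lines at 2-fold. The Hox genes lie at the low end, with none of the 38 at 1 RPKM in either library.

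The depth behind these values was read from the steps between the RPKM of short genes with few reads, giving 88 M reads in WT (87.9 to 88.1 M over 75 genes) and 72.4 M reads in G34R cells (72.2 to 72.5 M over 67 genes). For the Hox genes, with 1031 to 6836 bases of exon, 1 read was worth 0.00166 to 0.0110 RPKM in WT and 0.00202 to 0.0134 RPKM in G34R cells, and values were given to 2 decimals, so that a listed 0 can hide up to 3 reads. Intervals below are exact 95% intervals on the estimated reads and cover counting error only. For a sum of genes the printed log2 ratio is that of the summed RPKM. Its interval is that of the summed reads, which are not corrected for gene length, so the 2 are not centred alike. A pluripotent identity was seen in both libraries, with Pou5f1 at 194.34 RPKM in WT and 189.46 in G34R cells and all 9 pluripotency markers above 16 RPKM. Nanog (127.07 and 52.24 RPKM) and Zfp42 (180.30 and 16.40 RPKM) were lower in G34R cells by more than 2-fold. H3f3a stood at 8.17 RPKM in WT and 4.89 in G34R cells, and per-gene values cannot show the substitution.

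**Figure D2:**
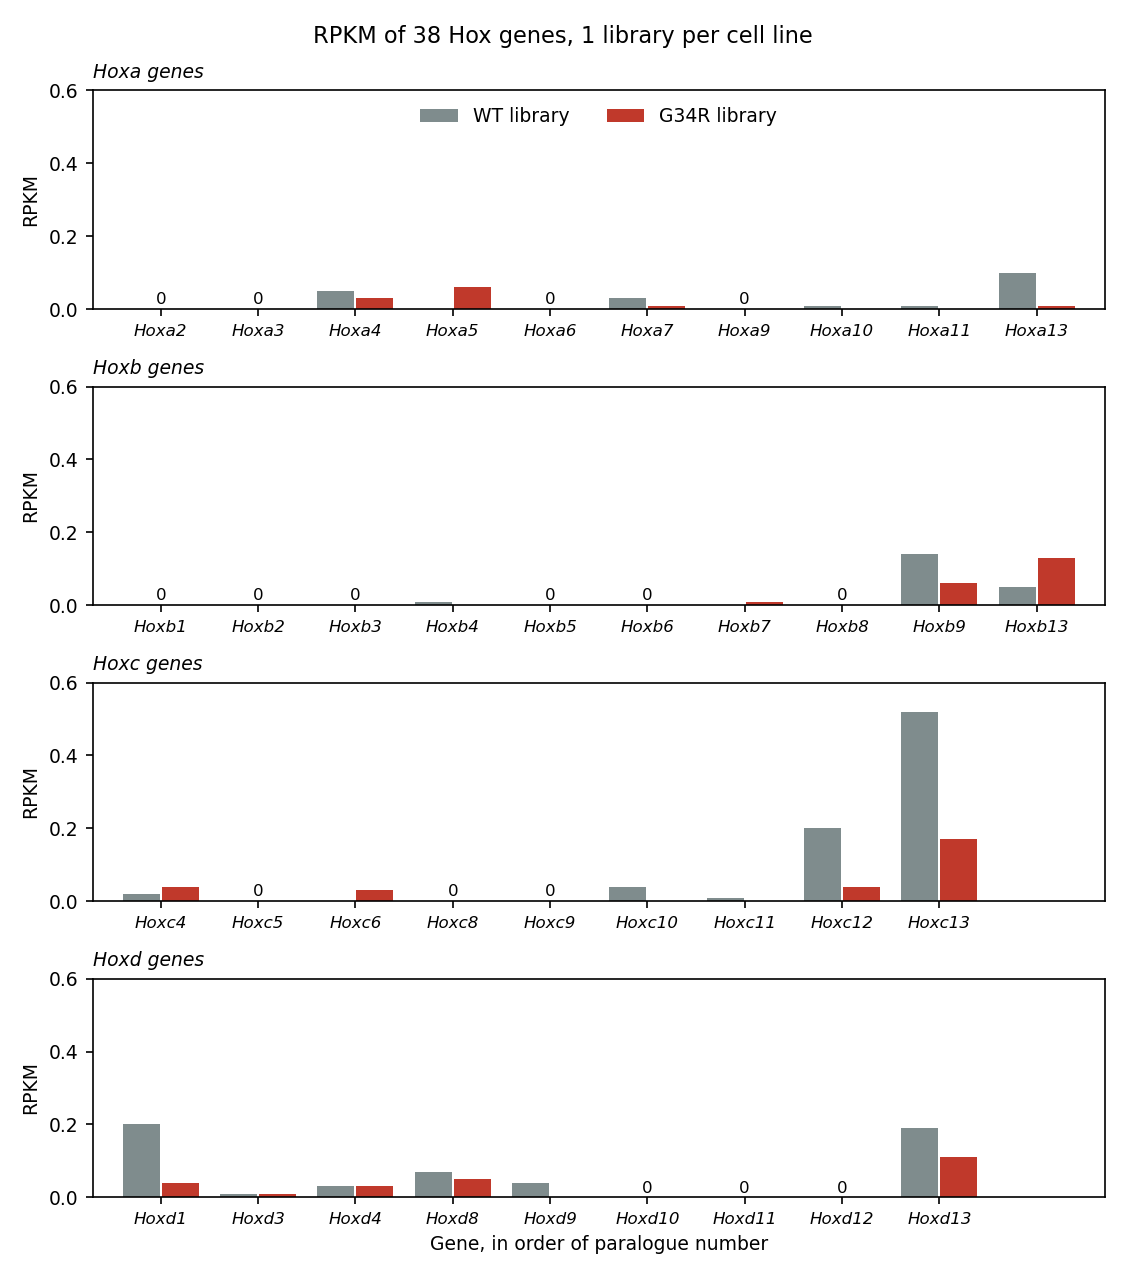
RPKM (vertical, from 0) of each of the 38 Hox genes in the WT library (grey bars) and the G34R library (red bars), with genes in order of paralogue number (horizontal) and 1 panel per cluster, where "0" marks a gene at 0 in both libraries. The tallest bars are those of Hoxc13 (0.52 RPKM in WT), and paralogue 13 is above 0 in all 4 clusters in both libraries.

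Among the 7 anterior genes described (numbers 1 to 3), 5 were listed at 0 in both libraries: Hoxa2, Hoxa3, Hoxb1, Hoxb2 and Hoxb3. These genes act in the hindbrain and the branchial arches. Hoxd1, which acts in sensory neurons, was at 0.20 RPKM in WT (0.139 to 0.283, about 33 reads) and 0.04 RPKM in G34R cells (0.0120 to 0.0865, about 5 reads), a log2 ratio of -2.32 (-4.16 to -1.07). Hoxd3 was at 0.01 RPKM in both libraries, so that Hoxd1 was the anterior gene described with a value that differed between the libraries.

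The central genes (numbers 4 to 8), which pattern the neck and trunk, were low throughout, with a sum of 0.21 RPKM in WT and 0.26 in G34R cells over 15 genes. Of these, 6 were at 0 in both libraries: Hoxa6, Hoxb5, Hoxb6, Hoxb8, Hoxc5 and Hoxc8. Those at 0 in WT cells were Hoxa5 with 0.06 RPKM in G34R cells (about 8 reads), Hoxc6 with 0.03 (about 5 reads) and Hoxb7 with 0.01 (about 3 reads). Hoxb4 had 0.01 RPKM in WT (about 4 reads) and was listed at 0 in G34R cells. The highest central gene in WT was Hoxd8, at 0.07 RPKM in WT and 0.05 in G34R cells, with a log2 ratio of -0.49 (-1.77 to 0.73). Hoxa4 (0.05 and 0.03 RPKM), Hoxa7 (0.03 and 0.01 RPKM), Hoxc4 (0.02 and 0.04 RPKM) and Hoxd4 (0.03 and 0.03 RPKM) also had counting intervals that include equality. The log2 ratio of the class sum was 0.31, and the interval of its summed reads (-0.47 to 0.78) includes equality.

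The posterior genes (numbers 9 to 13), which act in the tail end of the body, the urogenital tract and the limbs, were lower in G34R cells when summed. Their sum was 1.31 RPKM in WT and 0.52 RPKM in G34R cells (log2 ratio -1.33, interval of the summed reads -1.66 to -0.94). In WT cells 11 of the 16 were above 0 and in G34R cells 6 were, where 69.6% and 65.4% of all genes measured were above 0. Hoxa9, Hoxc9, Hoxd10, Hoxd11 and Hoxd12 were at 0 in both libraries.

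Hoxc13, required for hair and nail formation, was the highest of them at 0.52 RPKM in WT (0.430 to 0.627, about 113 reads) and 0.17 RPKM in G34R cells (0.114 to 0.240, about 30 reads). It was 3.06-fold lower in G34R cells (2.06 to 4.80). Its neighbour Hoxc12 was at 0.20 RPKM in WT (about 18 reads) and 0.04 in G34R cells (about 3 reads), with a log2 ratio of -2.32 (-4.71 to -0.53). Both genes at the posterior end of the Hoxc cluster were thus lower in G34R cells beyond counting error.

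The other paralogue 13 genes did not all stand the same way. Hoxa13, which patterns the digits and genital tubercle, was at 0.10 RPKM in WT (about 22 reads) and 0.01 in G34R cells (about 2 reads), a log2 ratio of -3.32 (-6.31 to -1.15). Hoxd13, the other main digit gene, was at 0.19 RPKM (about 42 reads) and 0.11 RPKM (about 20 reads), and its log2 ratio of -0.79 had an interval that just reaches equality (-1.64 to 0.01). Hoxb13, known for its role in the prostate and tail, was instead higher in G34R cells, at 0.05 RPKM in WT (about 10 reads) and 0.13 in G34R cells (about 21 reads), with a log2 ratio of 1.38 (0.20 to 2.60). With a 99% interval this difference no longer passed. Paralogue 13 was the only number from 9 to 13 with all its members above 0 in both libraries. Its 4 genes held 0.86 RPKM in WT and 0.42 RPKM in G34R cells.

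Between numbers 9 and 12, Hoxb9 was the highest beside Hoxc12, at 0.14 RPKM in WT (about 32 reads) and 0.06 in G34R cells (about 11 reads), with a log2 ratio of -1.22 (-2.40 to -0.23). Of the 5 Hox genes lower beyond counting error, Hoxb9 had the interval nearest to equality. With a 99% interval 4 in place of 5 were lower. Hoxc10 (about 7 reads) and Hoxd9 (about 8 reads) were each at 0.04 RPKM in WT and listed at 0 in G34R cells. Hoxa10, Hoxa11 and Hoxc11 were at 0.01 RPKM in WT and also listed at 0 in G34R cells. Of the 6 genes listed at 0 in G34R cells alone, 5 were posterior, and the 3 listed at 0 in WT cells alone were all central. Over all genes measured 6.37% were at 0 in G34R cells alone and 2.24% in WT cells alone, and the G34R library was the shallower.

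The 1 Hox gene described with at least 0.25 RPKM in 1 library, Hoxc13, was lower in G34R cells by more than 2-fold, and 0 were higher, where 9.64% of all genes at that level were lower and 5.79% were higher. Among all genes whose highest value was between 0.25 and 1 RPKM, 22.7% were lower and 12.7% higher. With 10 to 200 estimated reads over both libraries, 1 of 12 Hox genes described (8.33%), Hoxb13, was higher beyond counting error, beside 16.3% of all genes with as many reads. In the same set 5 of 12 (41.7%) were lower, Hoxa13, Hoxb9, Hoxc12, Hoxc13 and Hoxd1, beside 34.6% of all genes. Over the 38 genes the median log2 ratio was 0, as over all genes. Genes at 0 in both libraries, 16 of the 38, enter this median with a ratio of 0, so it says little about the detected genes. Of the 38, 5 (13.2%) were higher, 15 (39.5%) lower and 18 (47.4%) equal, against 29.5%, 40.8% and 29.7% of all genes.

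**Figure D3:**
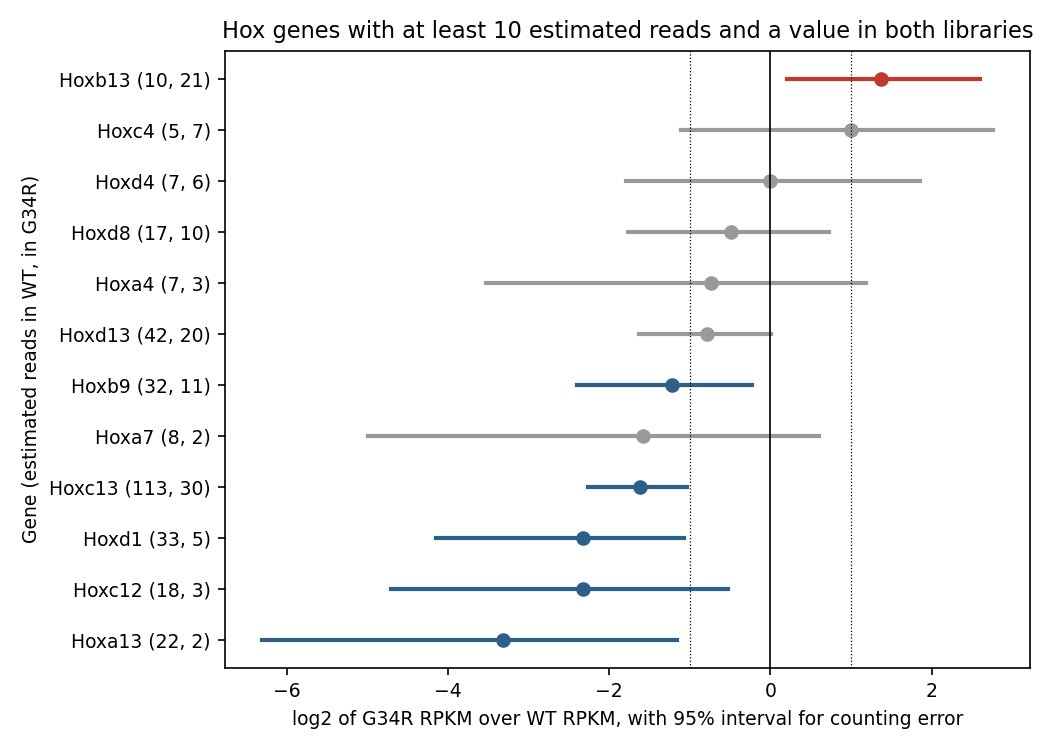
log2 ratio of G34R over WT RPKM (horizontal) for the 12 Hox genes described with at least 10 estimated reads and a value in both libraries (vertical, with the estimated reads in WT and in G34R), as points with 95% intervals for counting error, red where the interval lies above 0, blue where it lies below and grey where it includes 0. Solid and dotted lines stand at equality and at 2-fold. Hoxb13 lies above 0 and 5 genes lie below, and the widest interval is that of Hoxa13, with about 2 reads in G34R cells.

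By cluster, the Hoxc sum was 0.79 RPKM in WT and 0.28 in G34R cells, with Hoxc13 as 65.8% and 60.7% of it. Its log2 ratio was -1.50 (interval of the summed reads -1.92 to -0.91). The Hoxd sum was 0.54 RPKM in WT and 0.24 in G34R cells (-1.17, interval of the summed reads -1.57 to -0.52). The Hoxb sum was 0.20 RPKM in both libraries, made up mainly of Hoxb9 in WT and of Hoxb13 in G34R cells.

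Transcripts within the clusters that are not Hox coding genes were mostly silent too, and 17 of 23 were at 0 in both libraries. The gene 6720416L17Rik, between Hoxd3 and Hoxd1 on the strand opposite to Hoxd1, was at 0.08 RPKM in WT (about 17 reads) and 0.01 in G34R cells (about 2 reads), a log2 ratio of -3.00 (-5.96 to -0.73). Hoxd1, the Hox gene nearest to it, was lower in G34R cells as well, a case noted after the values were seen. The highest values inside a cluster were those of Gm53, next to Hoxb9, at 0.96 RPKM in WT and 0.72 in G34R cells, and of the precursor of Mir196a-1, at 0.45 and 0.54 RPKM from about 4 reads in each library.

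Some genes beyond the clusters, at a distance from them, were expressed well above the Hox genes. Among the 3 nearest non-Hox genes on each side of the Hox genes described in a cluster, 24 in all, 9 reached 1 RPKM, as many were at 0 in both libraries and 1 with at least 0.25 RPKM was past 2-fold: Calcoco2, beyond the Hoxb13 end, at 14.74 RPKM in WT and 3.46 in G34R cells. Those that reached 1 RPKM lay from 49.8 kb (Gm15055) to 250.1 kb (Atp5g2) from the nearest Hox gene described. Nearer genes were lower, among them Ttll6, 28.9 kb from Hoxb13, at 0.62 and 0.44 RPKM. Gm15051, 0.2 kb from Hoxa2, was at 0.07 and 0.24 RPKM. Cbx5, which encodes the heterochromatin protein HP1 alpha and lies beyond Hoxc4, was at 41.31 and 37.80 RPKM. Skap2, 149.8 kb from Hoxa2, was at 13.16 and 15.75 RPKM, and Mtx2, beyond Hoxd1, was at 6.25 and 5.09 RPKM. The even-skipped genes, which border the posterior ends of the Hoxa and Hoxd clusters and belong to the same homeobox class, were as low as the Hox genes, with Evx1 at 0.06 and 0.07 RPKM and Evx2 at 0 in both.

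CpG content around the gene starts is given as a description, with no test. In windows of 1000 bases centred on the 5′ end of each gene, 20 of 38 Hox genes (52.6%) had an observed over expected CpG ratio above 0.6, against 15.7% of all genes under 0.25 RPKM in both libraries and 67.6% of genes at or above it in 1. The median ratio was 0.62 for Hox genes, 0.24 for the genes under 0.25 RPKM and 0.71 for those above. Of the 16 Hox genes at 0 in both libraries 5 (31.2%) were above 0.6, with a median ratio of 0.53, and of the other 22 it was 15 (68.2%), with a median of 0.71. This split was made after the values were seen, and the genes of a cluster share their base composition with their neighbours.

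Hox proteins bind DNA with cofactors of the TALE homeodomain class, and of the 9 in the list (Pbx, Meis and Pknox genes) 7 reached 0.25 RPKM in 1 library. Of these 2 were higher by more than 2-fold in G34R cells and 0 lower, beside 5.79% and 9.64% of all genes at that level. Among all genes with a highest value between 0.25 and 1 RPKM it was 12.7% and 22.7%. The same shares stand beside the counts of each list below. Below 0.25 RPKM, Meis2 was more than 2-fold lower, at 0.07 and 0.03 RPKM, a log2 ratio of -1.22 (-1.91 to -0.54). Meis1 was at 0.05 RPKM in WT and 0.31 in G34R cells, a log2 ratio of 2.63 (2.07 to 3.20), and Pknox2 at 0.30 and 0.93 RPKM, a log2 ratio of 1.63 (1.29 to 2.00). Pbx2 (4.68 and 8.01 RPKM) and Pknox1 (4.68 and 4.26 RPKM) were the highest cofactors in WT and were within 2-fold.

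Of the Cdx, ParaHox and neighbouring homeobox genes, 3 of 12 reached 0.25 RPKM, and 2 were higher and 1 lower by more than 2-fold. Cdx1, which activates Hox genes in the posterior embryo, was at 0.25 RPKM in WT and 1.16 in G34R cells, a log2 ratio of 2.21 (1.71 to 2.79). The other Cdx genes were below 0.25 RPKM and did not stand the same way. Cdx4 was at 0.07 RPKM in WT (about 12 reads) and listed at 0 in G34R cells. Cdx2 was at 0.04 and 0.09 RPKM, with a counting interval that includes equality. Gbx2, a regulator of the border between midbrain and hindbrain that is also expressed in ES cells, was at 2.75 and 8.34 RPKM (log2 ratio 1.60). Meox1, a gene of early somites, was lower, at 0.38 and 0.14 RPKM (-1.44, -2.17 to -0.73).

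Among the 17 retinoic acid genes, 9 reached 0.25 RPKM, 0 were higher and 2 were lower by more than 2-fold: Aldh1a2, which makes retinoic acid, at 0.53 and 0.24 RPKM, and Crabp2, which carries it to the nucleus, at 2.42 and 1.09 RPKM. The receptor genes Rara (8.53 and 8.81 RPKM) and Rarg (17.54 and 15.55 RPKM) were expressed in both libraries. Rarb and Cyp26a1, which retinoic acid induces, were at 0.01 and 0.02 RPKM and at 0.13 and 0.03 RPKM. Cyp26b1, which like Cyp26a1 degrades retinoic acid, stood the other way, at 0.02 and 0.09 RPKM (log2 ratio 2.17, 1.03 to 3.52). These 3 were named after their values were seen. All 8 genes of the activating MLL complexes and all 8 Polycomb core genes were expressed above 0.9 RPKM in both libraries, and none of either list was past 2-fold.

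**Figure D4:**
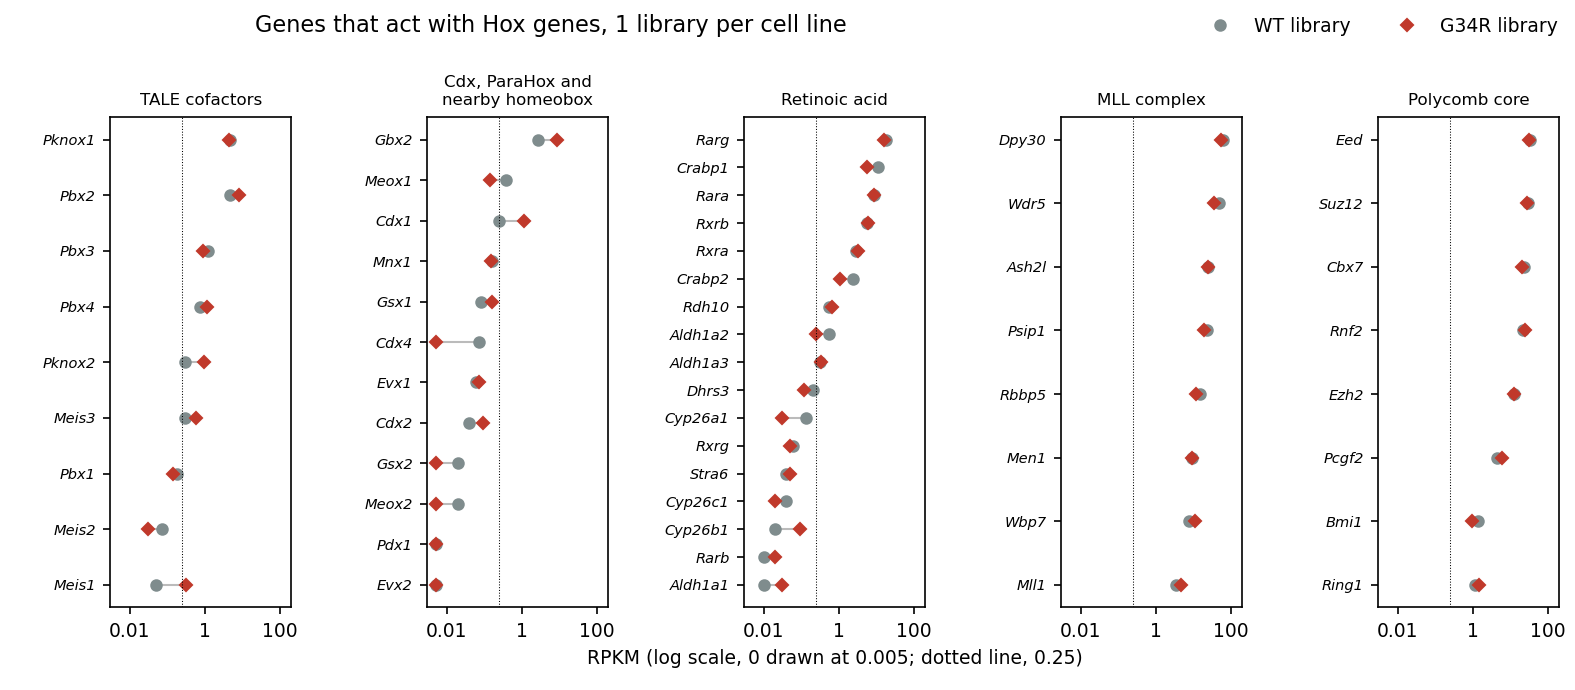
RPKM (horizontal, log scale) of genes that act with or upstream of Hox genes (vertical) in the WT library (grey circles) and the G34R library (red diamonds), 1 panel per list, with the dotted line at 0.25 RPKM. The MLL and Polycomb genes nearly coincide between libraries, whereas Meis1, Pknox2, Cdx1 and Gbx2 are shifted to the right in G34R cells. Meis2, Meox1, Aldh1a2 and Crabp2 are among those shifted to the left.

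Markers of other cell types moved between the libraries as well. Beside the counts below, 5.79% of all genes with at least 0.25 RPKM in 1 library were higher by more than 2-fold and 9.64% lower. Of 8 primitive endoderm markers 6 reached 0.25 RPKM in 1 library, and 3 of these were higher by more than 2-fold in G34R cells (Gata4, Gata6 and Sox17). The list sum was 13.25 RPKM in WT and 24.15 in G34R cells, of which Lama1, within 2-fold, held 11.56 and 20.26 RPKM. Foxa2 was lower (0.13 and 0.07 RPKM), with a counting interval that includes equality, and Afp was at 0 in both. Of 7 mesoderm markers 2 reached 0.25 RPKM and 1 of these was higher, Eomes at 0.43 and 1.88 RPKM. Below that level Tbx6 (0.06 and 0.22 RPKM), Mixl1 (0.06 and 0.16 RPKM) and Mesp1 (0.04 and 0.10 RPKM) were also more than 2-fold higher and Kdr (0.14 and 0.06 RPKM) more than 2-fold lower. The counting interval of Mesp1 includes equality. The list sums were 0.90 and 2.73 RPKM with none at 0 in both. Of 6 neural markers found 3 reached 0.25 RPKM, and Olig2 was higher (0.03 and 17.71 RPKM) and Tubb3 lower (35.58 and 8.36 RPKM). Pax6, below that level, was lower too (0.13 and 0.03 RPKM), and the list sums were 37.10 and 27.66 RPKM with Neurog2 and Pax3 at 0 in both. Of 9 fibroblast markers 1 reached 0.25 RPKM, Thy1 at 1.18 and 0.71 RPKM, within 2-fold. Below that level Col1a2 and Col3a1 were each at 0.05 RPKM in WT and 0.02 in G34R cells. Twist2 was at 0.02 and 0.05 RPKM, with a counting interval that includes equality. Prrx1, Postn, Dcn and Lum were at 0 in both, and the list sums were 1.5 and 0.99 RPKM. The part of these marker genes in the Hox values was not tested.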

How the data were processed

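Stranded total RNA (500 ng, 12 amplification cycles) from 1 WT and 1 G34R library was sequenced as 50 bp single reads. Per the labels and methods, the authors aligned reads to mm9 with STAR 2.4.2a and quantified genes in Seqmonk by strand, with isoforms merged and transcript length corrected. The deposited values are RPKM per gene to 2 decimals, and no counts were used. Exon lengths came from GENCODE M1 on NCBIM37 (mm9), where 99.3% of the 26127 genes (25946), and all 38 Hox genes described, matched by position. The spacing of low RPKM values among genes with a single exon under 800 bases and under 6 reads gave the depth (88 M and 72.4 M reads, from 75 and 67 genes). Reads per gene are estimates from these, and the method was checked on simulated data.

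log2 ratios used RPKM under 0.01 set to 0.01. No ratio is printed for a gene listed at 0 in a library, but the counts past 2-fold and the medians took its 0 as 0.01. Genes with at least 0.25 RPKM in 1 library and a ratio above 2-fold were counted, a filter and fold taken from the study's list of changed genes. Intervals were exact 95% Poisson for a level and exact binomial (Clopper-Pearson) for a ratio. For a sum the binomial interval was taken from the summed reads, not from the summed RPKM whose ratio is printed. The binomial interval was chosen for genes with 10 to 200 estimated reads. With 1 library per group no test between groups was run.

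Every Hox gene at 0.25 RPKM or more was named with its values, the others by count or where listed at 0 or past 2-fold, and of the other lists the members past 2-fold, at most 6 a list. Further genes were named after their values were seen. The members and lists were chosen with earlier results of these data known. A homeobox is the 60 codons around the recognition-helix motif. Sox1, a neural marker, was not found by name. Alternatives comprised rescaling, added constants, other filters and folds, and sums without the highest member. Scripts ran in Python 3.11.15 (pandas 2.3.3, NumPy 2.4.6), with SciPy 1.17.1 for intervals and figures drawn in matplotlib 3.10.9. A Hox gene that the rule found is not reported here, nor are sums over the cluster and class that hold it.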

Additional observations from a re-analysis of the deposited data

How the results depend on the processing

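No paired analysis was possible because each cell line had 1 library. For the same reason no library could be left out. Rescaling the G34R library to the same RPKM sum, or to a median log2 ratio of 0 over genes with at least 1 RPKM, added 0.05 to each log2 ratio of genes above 0 and changed no count of Hox genes past a limit and turned no direction of a Hox sum that differed. Over all genes, those higher and lower by more than 2-fold (774 and 1289) became 853 and 1237 with the same sum and 867 and 1224 with the median at 0, and those with 10 to 200 reads beyond counting error (726 and 1536) became 775 and 1477 with the median at 0. The numbers of Hox genes described that were higher and lower by more than 2-fold (0 and 1) became 3 and 8 of 38 with no filter. Over all 26127 genes 1445 and 2877 were so. From 0.1 RPKM there were 1 and 5 of 7 Hox genes described, beside 1027 and 1909 of 15111 genes. The Hox counts were 0 and 0 from 1 RPKM or with 1 RPKM added before the ratio, since none of the 38 reaches 1 RPKM. They stayed at 0 and 1 for a 1.5-fold or 3-fold limit. With a 99% interval, an alternative chosen after seeing the data like the others for this count, 0 Hox genes in place of 1 were higher beyond counting error and 4 in place of 5 lower. Of the 4444 genes with 10 to 200 reads, 545 were higher and 1275 lower with that interval. The median log2 ratio was -1.61 over the 7 members with at least 0.1 RPKM in 1 library, in place of 0 over the 38, and -0.09 over all genes at that level. Of these members Hoxa13, Hoxb9, Hoxc12 and Hoxd1 passed the filter through WT alone, and Hoxb13 through G34R cells alone. The filter thus depends on the values compared, and no conclusion is drawn from this median or from the counts from 0.1 RPKM.

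Without its highest member, Hoxb9, the log2 ratio of the Hoxb sum went from 0 to 1.22. Of 60 recomputed log2 ratios of the 12 genes with at least 10 reads, 53 stayed within the gene's own counting interval and 7 left it, 6 of them with 1 RPKM added. Most of the 53 could not have left. An added constant only moves a ratio towards equality, so it cannot leave an interval that includes equality. Rescaling shifted each ratio by far less than its distance to either limit. All 7 that left belonged to genes whose interval excludes equality. No conclusion on robustness is drawn from the 53. Genes that share exons with another member (Hoxa2 with Hoxa3, Hoxb7 with Hoxb8, Hoxd3 with Hoxd4) cannot be fully separated. Depth limits most members: 26 of 38 had fewer than 10 reads over both libraries and were not compared by interval.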
